A study of Mus musculus with 6 samples.

Results

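The miR-34 family of the mouse comprises 3 hairpins, miR-34a, miR-34b and miR-34c, each of which can give a mature miRNA from either arm. The 6 rows of these arms, 6 of the 1966 mature miRNAs in the count table, were chosen by name. Their reads were compared between hearts of 3 mice with transverse aortic constriction (TAC, mice 29, 78 and 81) and hearts of 3 sham-operated mice (mice 47, 68 and 69). TAC ties the aorta to a smaller bore and loads the left ventricle with pressure, whereas sham mice have surgery without the constriction. All 6 mice were male and wild type (WT), and heart tissue was taken 8 weeks after surgery. The sources used here give neither strain nor age.

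As background, miR-34 genes are transcribed in response to the tumour suppressor p53, and their 5p arms repress mRNAs of cell cycle and survival proteins such as Cdk6, Met, Bcl2 and the deacetylase Sirt1. miR-34a is made in most tissues, while the miR-34b and miR-34c hairpins come from 1 shared primary transcript that is most abundant in ciliated epithelium and testis. In the heart the family, miR-34a above all, is commonly described as raised with age, after infarction and under pressure load.

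Mature sequences were matched in RefSeq (build GRCm38.p6, written 5′ to 3′) for 5 of the 6 members, at the same coordinates as in the count table. They are shown because the seed, bases 2 to 8 and in capitals here, sets which mRNAs a miRNA can bind, and because it sorts the arms into groups.
miR-34a-5p: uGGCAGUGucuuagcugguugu
miR-34b-5p: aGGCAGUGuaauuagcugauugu
miR-34b-3p: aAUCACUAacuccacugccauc
miR-34c-3p: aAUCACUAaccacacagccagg
miR-34a-3p: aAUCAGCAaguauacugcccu
The seed of miR-34a-5p and miR-34b-5p is GGCAGUG. It occurred in 4 of 1679 mature RefSeq miRNAs, the other 2 being members of the miR-449 family of ciliated cells, shown for comparison with the miR-34 arms. miR-34c-5p had no mature RefSeq entry, so this count could not include it.
miR-449a-5p: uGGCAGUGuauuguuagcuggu
miR-449c-5p: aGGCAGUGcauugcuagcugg
The 3p arms of miR-34b and miR-34c share the seed AUCACUA, found in these 2 entries only, and are identical over their first 10 bases and at 17 of 22 positions. miR-34a-3p has a seed of its own, AUCAGCA, and shares its first 5 bases with the other 3p arms.

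The hairpins lie at 2 loci. Coordinates are 1-based and on the assembly of the count table (mm10, for which GENCODE M21 gave the annotation). miR-34a lies on the plus strand of chromosome 4, its 5p arm at 150068473 to 150068494, and overlaps no annotated gene other than Mir34a itself. The Mir34b and Mir34c hairpins lie on the minus strand of chromosome 9, separated by 451 bases, with miR-34b-5p at 51103610 to 51103632 and miR-34c-5p at 51103076 to 51103098. Both fall within an intron of Btg4, a gene of the opposite strand. Each member had 1 place in the table, and none overlapped a miRNA row on the opposite strand.

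Total counts ranged from 1226187 to 1795831 in TAC and from 1818725 to 3509001 in sham, so the sham libraries were deeper. Levels are counts per 1000000 counts of a library (CPM), scaled by TMM factors, and are given as mean ± SD with 3 mice per group. A library with 0 counts of a miRNA still allows up to 3 counts by counting error alone, which is 1.82 to 2.82 CPM in the TAC libraries and 0.767 to 1.51 CPM in the sham libraries. The heart muscle markers miR-1a-3p, miR-133a-3p, miR-208a-3p, miR-208b-3p and miR-499-5p were all detected and together made up 273500 to 325900 CPM in TAC and 151800 to 183100 CPM in sham. With edgeR's quasi-likelihood test, 108 of 354 tested miRNAs (30.5%) had an adjusted p under 0.05 and are called changed, 40 of them lower in TAC (11.3%) and 68 higher (19.2%). Of the 354, 78 (22%) had every TAC library below every sham library.

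miR-34c-5p, the most abundant member in every library, was lower in TAC hearts by a factor of 2.40, while miR-34a-5p did not pass the test and the other 4 members had 16 or fewer counts in every library. Only miR-34c-5p and miR-34a-5p passed the filter on low counts, so 2 of the 6 members were tested. The count of 1 lower call among these 2 stands beside 11.3% of all tested miRNAs.

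miR-34c-5p had 111, 55 and 39 counts in TAC mice 29, 78 and 81, against 453, 244 and 260 counts in sham mice 47, 68 and 69. At the TMM level these were 67.2, 37.0 and 36.7 CPM in TAC and 116, 123 and 102 CPM in sham. The groups did not overlap, and TAC 29 was the highest of the TAC libraries. The means were 46.9 ± 17.5 CPM in TAC and 113 ± 10.5 CPM in sham (SD, n = 3 each). The log2 fold change, TAC over sham, was -1.26 ± 0.25 (standard error), with a 95% interval of -1.82 to -0.70 and an edgeR adjusted p = 0.0064. In size it ranked 7 among the 40 lower calls, whose median was -0.79, and the median of all tested miRNAs was 0.07. By mean level it ranked 164 of all 1966 rows.

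The lower level of miR-34c-5p was called in each of the 19 alternative analyses, with log2 fold changes from -1.63 to -1.12. Where near-identical rows were merged, its own row was left as it is, so that alternative did not test whether it shares reads with miR-34b-5p. Without TAC 29 the log2 fold change was -1.63 (edgeR adjusted p = 0.00236), and without TAC 78 it was -1.12 (adjusted p = 0.0302). The scalings differ in where they set no change: with library totals the median of all tested miRNAs was -0.24, and miR-34c-5p was at -1.56. In bulk tissue, fewer cells that express a miRNA and less of it per cell cannot be told apart. No source used here gives the strand setting of the counting, so any reads from the Btg4 intron on the other strand cannot be told apart from those of miR-34b and miR-34c.

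**Figure D1:**
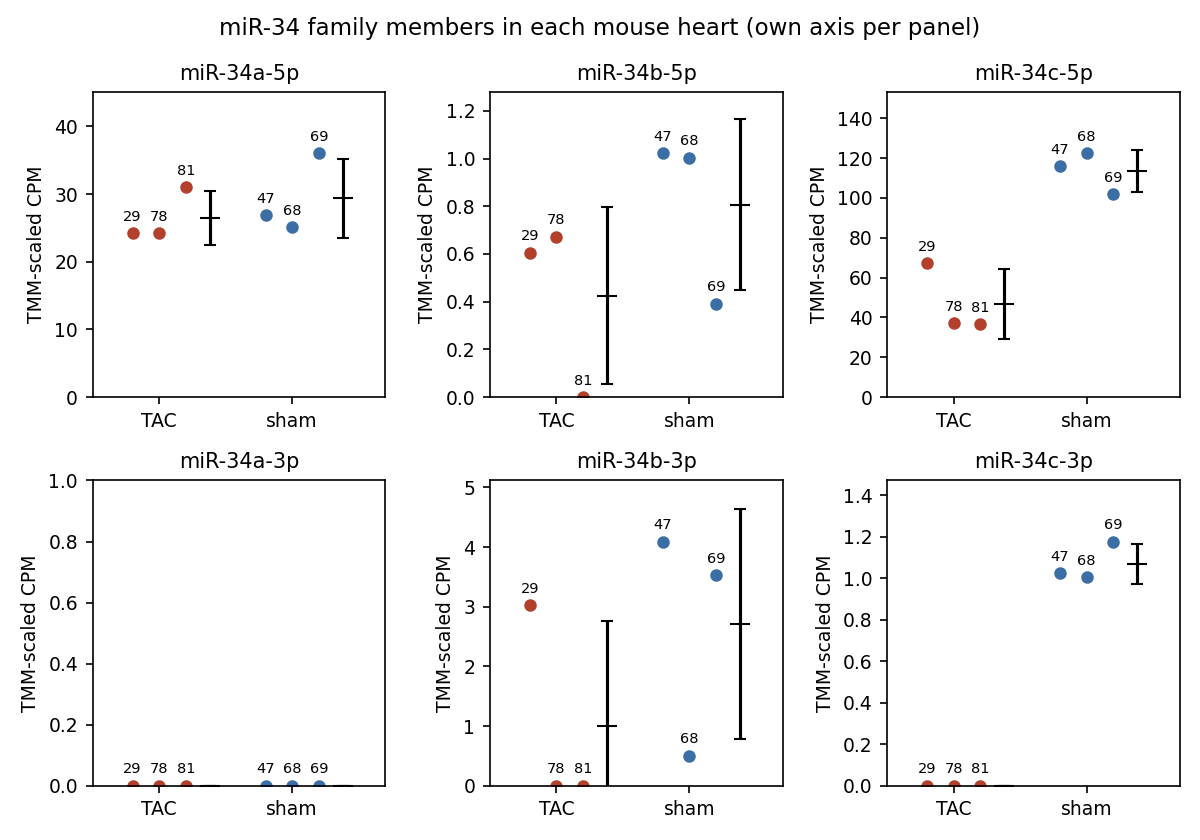
TMM-scaled CPM of the 6 miR-34 family members in each heart, with its own axis from 0 in each panel. Points are mice, numbered as in the labels, and the mark with a bar beside them is the mean ± SD of the 3 mice (the bar of miR-34b-3p in TAC is cut at 0). miR-34c-5p lies between 36.7 and 67.2 CPM in TAC and between 102 and 123 CPM in sham, and miR-34a-5p overlaps between the groups.

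miR-34a-5p, the member most often linked to cardiac ageing and injury, had 40, 36 and 33 counts in TAC mice 29, 78 and 81, against 105, 50 and 92 counts in sham mice 47, 68 and 69. These were 24.2, 24.2 and 31.0 CPM in TAC and 26.9, 25.1 and 36.1 CPM in sham. The groups overlapped, since TAC 81 was above sham 47 and sham 68. The means were 26.5 ± 3.94 CPM in TAC and 29.3 ± 5.88 CPM in sham (SD, n = 3 each). The log2 fold change was -0.16 ± 0.21, with an edgeR adjusted p = 0.556. Its 95% interval ran from -0.63 to 0.31, which leaves room for a modest fall or a small rise, and for neither a doubling nor a halving. The estimate stayed below 0 in all 19 alternatives, between -0.47 with library totals and -0.01 without sham 69, and was called in 0 of them.

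**Figure D2:**
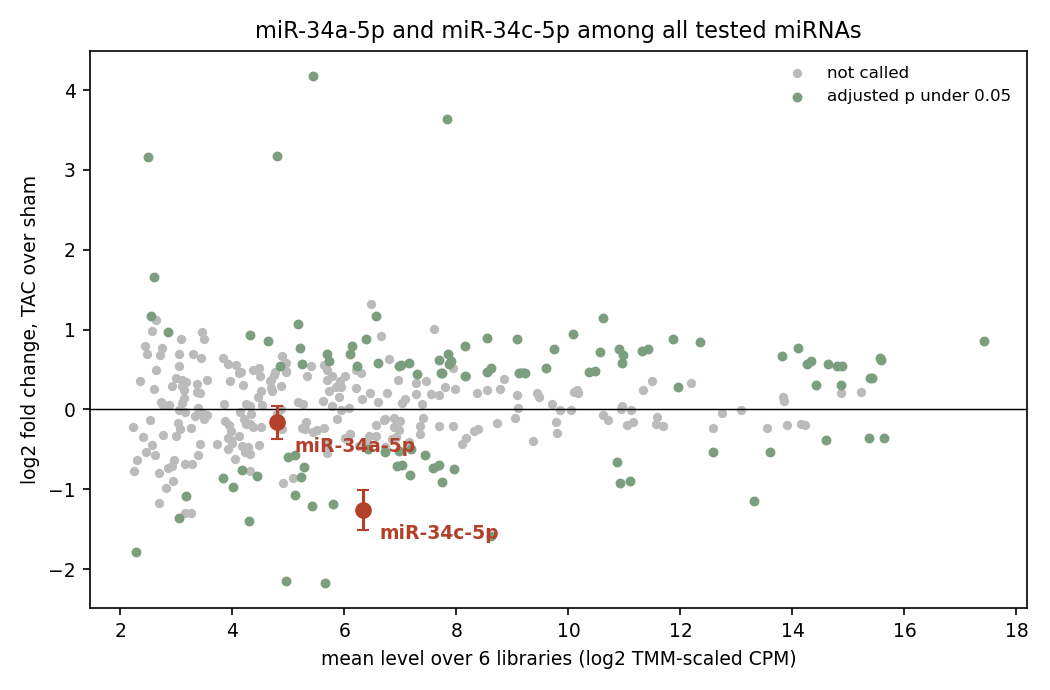
Log2 fold change of TAC over sham against the mean level over the 6 libraries (log2 TMM-scaled CPM) for all 354 tested miRNAs. Green points are the 108 called miRNAs, and the bars on the miR-34 members are standard errors. miR-34c-5p, at -1.26, lies near the lower edge, and miR-34a-5p, at -0.16, lies within the grey points.

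The 3p arm of miR-34a was at 0 counts in all 6 libraries, beside 356 counts of the 5p arm, which allows a 3p share of up to 0.843% of the hairpin's reads. The 3p arm of miR-34c had 0 counts in each TAC library and 4, 2 and 3 counts in sham mice 47, 68 and 69. Both groups were near their own limit of 3 counts, so no fold change is given. The 5p arm thus made up all 111, 55 and 39 reads of the miR-34c hairpin in TAC, which allows a 3p share of up to 2.70%, 5.45% and 7.69%. In sham it made up 99.1%, 99.2% and 98.9% (95% Wilson intervals of 97.8 to 99.7%, 97.1 to 99.8% and 96.7 to 99.6%). The mean 5p share was 100% in TAC and 99.1% ± 0.174 in sham (SD, n = 3 each). The difference of 0.943 percentage points had an exact two-sided permutation p = 0.1, the smallest that 3 against 3 can give, and the 3p share of sham was below what the TAC counts could show.

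miR-34b differed from the other hairpins in arm use when its reads were pooled over the libraries, and its reads were few. miR-34b-3p had 5, 0 and 0 counts in TAC mice 29, 78 and 81, against 16, 1 and 9 counts in sham mice 47, 68 and 69. miR-34b-5p had 1, 1 and 0 counts in TAC and 4, 2 and 1 counts in sham. TAC 29 was above sham 68 for miR-34b-3p, and TAC 29 and TAC 78 were above sham 69 in CPM for miR-34b-5p, so the groups overlapped for both arms. Over all 6 libraries the 5p arm held 9 of 40 reads of the hairpin, or 22.5% (95% Wilson interval 12.3 to 37.5%), against 99.2% of the miR-34c reads and all of the miR-34a reads. Pooled over the libraries, most miR-34b reads thus carry the AUCACUA seed rather than GGCAGUG. The 3p reads came mostly from TAC 29, sham 47 and sham 69. In sham 68 the 5p arm held 2 of 3 reads, and in TAC 78 it held the only read, so the arm preference was not seen in every mouse. The Wilson interval covers counting error only, and reads that fit both miR-34b-5p and its close relative miR-34c-5p may have been counted under either row.

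Summed over both arms, the miR-34b hairpin was at 1.43 ± 1.93 CPM in TAC and 3.51 ± 1.84 CPM in sham (SD, n = 3 each, exact two-sided permutation p = 0.2). The miR-34c hairpin, from the same transcript, was at 46.9 ± 17.5 CPM in TAC and 114 ± 10.4 CPM in sham (exact two-sided permutation p = 0.1, the smallest possible). The log2 ratio of the miR-34b to the miR-34c hairpin within a library, with 0.5 added to each count, was -4.10, -5.21 and -6.30 in TAC mice 29, 78 and 81. In sham mice 47, 68 and 69 it was -4.48, -6.14 and -4.65, within the range of the TAC values. The difference of the means, -5.21 ± 1.10 in TAC and -5.09 ± 0.91 in sham, was -0.12 (exact two-sided permutation p = 0.9). Its sign turned to 0.28 with 1 added to each count and to 0.088 with libraries thinned to the smallest total.

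The 5p arms with the GGCAGUG seed can bind the same sites, and miR-34c-5p is placed with them from general knowledge of the family. Their makeup was examined within each library, where the scaling between libraries plays no part. The summed level of the family, given further below, does depend on the scaling. miR-34c-5p and miR-34a-5p together supplied 92.9% to 98.6% of the counts of these 5 rows in TAC, and 98.9% to 99.1% in sham. The rest came from miR-34b-5p and the miR-449 rows: miR-449a-5p had 2, 6 and 1 counts in TAC mice 29, 78 and 81, against 1, 1 and 2 counts in sham mice 47, 68 and 69. miR-449c-5p had 1 count in sham 69 and 0 elsewhere. miR-449b, not among the 5 rows, had 1 count in sham 47 and 0 elsewhere. For miR-449a-5p these counts were 1.21, 4.03 and 0.94 CPM in TAC and 0.256, 0.502 and 0.784 CPM in sham, in the same order of mice. All its counts except the 6 of TAC 78 were below the limit of 3 counts, so no fold change is given.

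miR-34c-5p made up 73.5%, 60.4% and 54.2% of the reads of miR-34c-5p and miR-34a-5p in TAC mice 29, 78 and 81 (95% Wilson intervals of 66.0 to 79.9%, 50.2 to 69.9% and 42.7 to 65.2%). In sham mice 47, 68 and 69 it made up 81.2%, 83.0% and 73.9% (77.7 to 84.2%, 78.3 to 86.9% and 69.0 to 78.2%). TAC 29 and sham 69 were within each other's intervals, and TAC 78 and TAC 81 were the lowest. The mean share was 62.7% ± 9.87 in TAC and 79.3% ± 4.83 in sham (SD, n = 3 each). On the log2 scale, with 0.5 added to each count, the ratio of miR-34c-5p to miR-34a-5p averaged 0.77 ± 0.63 in TAC and 1.96 ± 0.41 in sham. The difference of -1.19 had an exact two-sided permutation p = 0.1, the smallest that 3 against 3 can give. With libraries thinned to the smallest total the difference was -1.06 and the groups overlapped (exact two-sided permutation p = 0.2). With 3 mice per group the permutation test could not give a p under 0.05, so it cannot decide whether the 2 tested members changed separately.

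The 6 rows together held 87.4, 56.1 and 58.7 CPM of the unscaled library totals in TAC mice 29, 78 and 81, against 166, 164 and 161 in sham mice 47, 68 and 69. The sham libraries lay close together, and each TAC library was well below them. The means were 67.4 ± 17.4 in TAC and 164 ± 2.33 in sham (SD, n = 3 each, exact two-sided permutation p = 0.1, the smallest possible). The difference was -96.4 CPM of the library totals, -72.5 CPM on the TMM level and -133 CPM of the totals without the 5 most abundant miRNAs.

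**Figure D3:**
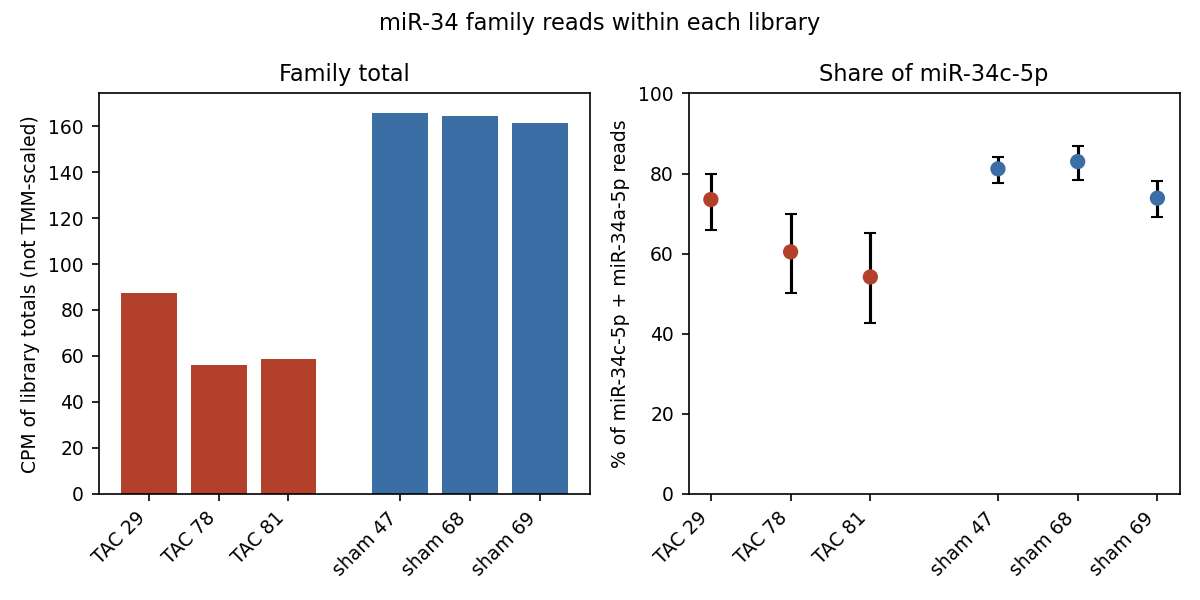
Left, summed CPM of the 6 miR-34 rows in each library, unscaled library totals (bars from 0), between 56.1 and 87.4 in TAC and between 161 and 166 in sham. Right, miR-34c-5p as a percent of the reads of miR-34c-5p and miR-34a-5p in each library with 95% Wilson intervals, which overlap between TAC 29 (73.5%) and sham 69 (73.9%).

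The miRNAs whose pattern over the 6 libraries was most like that of miR-34c-5p were miR-21a-5p, miR-214-3p and miR-214-5p. Likeness was the root mean square difference of log2 CPM after each miRNA's own mean was subtracted, over 352 other tested miRNAs. It was 0.185 for miR-21a-5p, 0.270 for miR-214-3p and 0.303 for miR-214-5p, where the median was 0.803. miR-21a-5p, an abundant miRNA known from cardiac fibroblasts, averaged 6323 CPM in TAC and 14060 CPM in sham. miR-214-3p, made from the mesenchymal transcript Dnm3os, averaged 196 CPM in TAC and 587 CPM in sham. All 3 were called lower in TAC, as was miR-34c-5p, so the difference between the groups makes up much of the likeness.

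Nearest to miR-34a-5p were miR-92a-3p of the miR-17 to miR-92 clusters (root mean square difference 0.113), miR-5100 (0.118) and miR-106b-3p, encoded in the gene Mcm7 (0.119), where the median was 0.379. None of these 3 was called, with log2 fold changes of -0.01 ± 0.11, -0.12 ± 0.21 and -0.21 ± 0.14. With library totals miR-92a-3p and miR-106b-3p were called lower, at -0.32 and -0.52 (edgeR adjusted p = 0.0407 and 0.023).

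**Figure D4:**
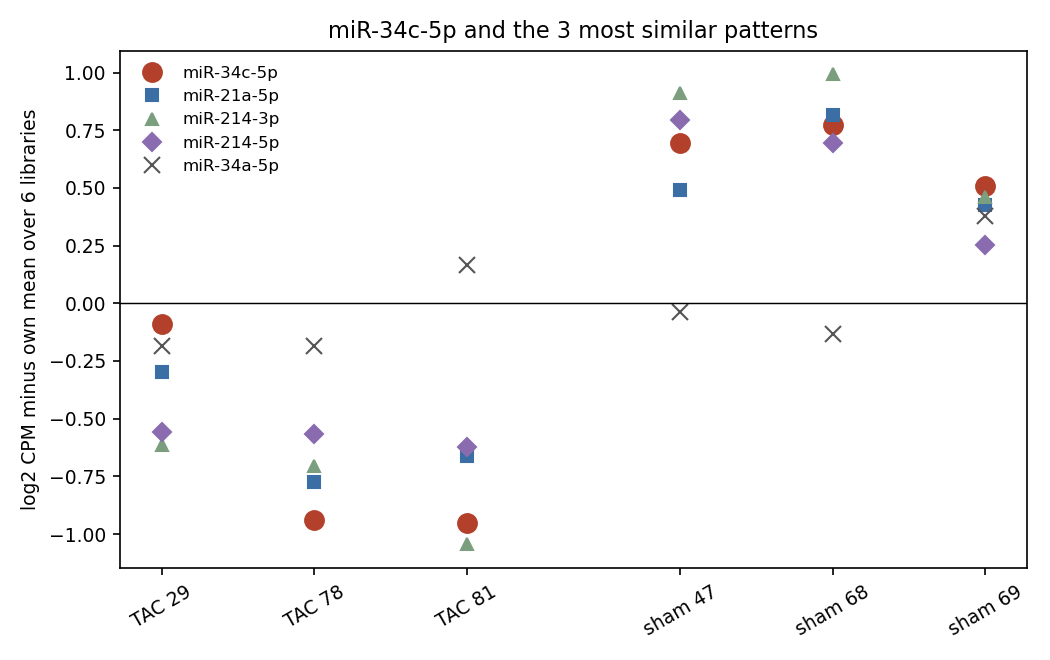
Log2 TMM-scaled CPM (0.5 added) minus each miRNA's own mean over the 6 libraries, by library, for miR-34c-5p (large circles), the 3 miRNAs of most similar pattern and miR-34a-5p (crosses). miR-21a-5p, miR-214-3p and miR-214-5p are above their means in all 3 sham libraries and below them in all 3 TAC libraries, as miR-34c-5p is, and miR-34a-5p is not separated by group.

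Markers of some other cell types differed between the groups as well. All 6 mesenchymal markers of the miR-199 and miR-214 group were tested. Of these, 5 were called lower in TAC, beside 11.3% of all tested miRNAs, and 1 was not called, with a median log2 fold change of -0.71. miR-214 and 1 of the 2 places of miR-199a lie close together on chromosome 1, so the 6 markers are not 6 separate genes. miR-199a-3p and miR-199b-3p, both at -0.53, have the same mature sequence and share reads, so they are not separate measurements. Both lost their calls without TAC 29, TAC 78, TAC 81, sham 47 or sham 68, which left 3 members lower in each case, and 6 were lower without sham 69. Their summed level was 16660 to 17240 CPM in TAC and 19110 to 30900 CPM in sham, and none was at 0 throughout. In sham it was highest in sham 68 (30900 CPM), where miR-34c-5p was highest too, and lowest in sham 69 (19110 CPM), where miR-34c-5p was lowest of the sham libraries. In TAC mice 29, 78 and 81 the sum was nearly flat, at 17240, 16660 and 17080 CPM, and miR-34c-5p was at 67.2, 37.0 and 36.7 CPM. Most of the sum came from miR-199a-3p, at 10150, 9964 and 10170 CPM in these mice, and from miR-199b-3p, at 5074, 4982 and 5083 CPM. Since these 2 rows share the reads of 1 mature sequence, the sum counts that sequence more than once. It mainly follows this sequence, in sham as in TAC, and not the 6 markers as a set. Single markers differed from the sum: miR-214-3p was at 219, 206 and 163 CPM in the same TAC mice. In sham, miR-199a-5p (3278 CPM) and miR-214-5p (88.8 CPM) were highest in sham 47, and miR-214-3p (668 CPM) and miR-199b-5p (148 CPM) in sham 68. The part of the mesenchymal markers in the level of miR-34c-5p was not tested.

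Epithelium was examined because the miR-34b and miR-34c hairpins and miR-449 are typical of its ciliated cells. The 6 epithelial markers, miR-200a-3p, miR-200b-3p, miR-200c-3p, miR-141-3p, miR-429-3p and miR-205-5p, summed to 23.5 to 37.5 CPM in TAC and to 16.4, 106 and 44.7 CPM in sham mice 47, 68 and 69. Of the 3 tested, 0 were called by edgeR, while 1 of 4 tested was lower without sham 47 and 2 of 6 without a low-count filter. None of the 6 was at 0 throughout, and sham 68 stood above the other sham libraries. miR-34c-5p in sham 47, where these markers were lowest, was 116 CPM, and without sham 68 its log2 fold change was -1.20 (edgeR adjusted p = 0.0215). The part of epithelial RNA in the level of miR-34c-5p was not tested. The 3 miR-449 markers of ciliated cells summed to 0.940 to 4.03 CPM in TAC and 0.502 to 1.18 CPM in sham. These were 3 or fewer counts in each library except TAC 78, which had 6. miR-92b-3p, the remaining member of the ciliated list, was not called (log2 fold change -0.20 ± 0.18, edgeR adjusted p = 0.416).

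Among the other markers, 4 of 5 heart muscle, 3 of 4 smooth muscle, 1 of 5 tested leukocyte and 1 of 3 tested red blood cell miRNAs were called higher in TAC, beside 19.2% of all tested miRNAs, and 0 were called lower by edgeR. With library totals 2 heart muscle markers were higher, miR-133a-3p and miR-208a-3p having lost their calls, and without a low-count filter 3. The smooth muscle count was 2 with library totals, with upper quartile factors, without the 5 most abundant miRNAs in the totals, without a low-count filter, and without TAC 78, TAC 81, sham 68 or sham 69. The smooth muscle markers are arms of miR-143 and miR-145a, which lie close together on chromosome 18, and miR-143-3p is also on the p53 list below. The leukocyte count was 2 with robust quasi-likelihood and without sham 47. The endothelial markers miR-126a-5p and miR-126a-3p were at 0 in every library, but both share their place with a miRNA row of the other strand, and a count of 0 there was not read as absence.

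Other miRNAs known as p53 targets included rises and no called fall. Of 12 listed, 11 had a row and 10 were tested: 4 rose, 0 fell and 6 did not pass, beside 19.2% of all tested miRNAs higher and 11.3% lower. The median log2 fold change of the 10 was 0.52. They are not 10 separate genes: miR-194 lies close to miR-192 on chromosome 19 and to miR-215 on chromosome 1. miR-143 and miR-145a lie close together on chromosome 18, as do miR-15a and 1 of the 2 places of miR-16 on chromosome 14. miR-103-3p and miR-107-3p, both at -0.01, varied together over the libraries and may not be separate measurements. The count of rises was 2 with library totals, without a low-count filter and without TAC 29. It was 3 with upper quartile factors and without the 5 most abundant miRNAs in the totals. With DESeq2, limma-voom, robust quasi-likelihood or thinned libraries it was 5. miR-192-5p, a miRNA of gut, liver and kidney, rose with a log2 fold change of 0.89 ± 0.11 (edgeR adjusted p = 0.000901). Its relative miR-215-5p rose with 0.69 ± 0.18 (edgeR adjusted p = 0.0209). miR-143-3p, of smooth muscle, rose with 0.64 ± 0.11 (edgeR adjusted p = 0.00406), and miR-16-5p, which represses cell cycle mRNAs, with 0.52 ± 0.12 (edgeR adjusted p = 0.0125).

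miR-192-5p and miR-143-3p kept these calls in all 19 alternatives. miR-215-5p lost its call in 6 and miR-16-5p in 4 of them, with library totals for both (0.39 and 0.21). miR-200c-3p, also an epithelial marker, had the lowest change of the list, -0.15 ± 0.45, and was not called (adjusted p = 0.811). It was at 0.41 without sham 68.

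**Figure D5:**
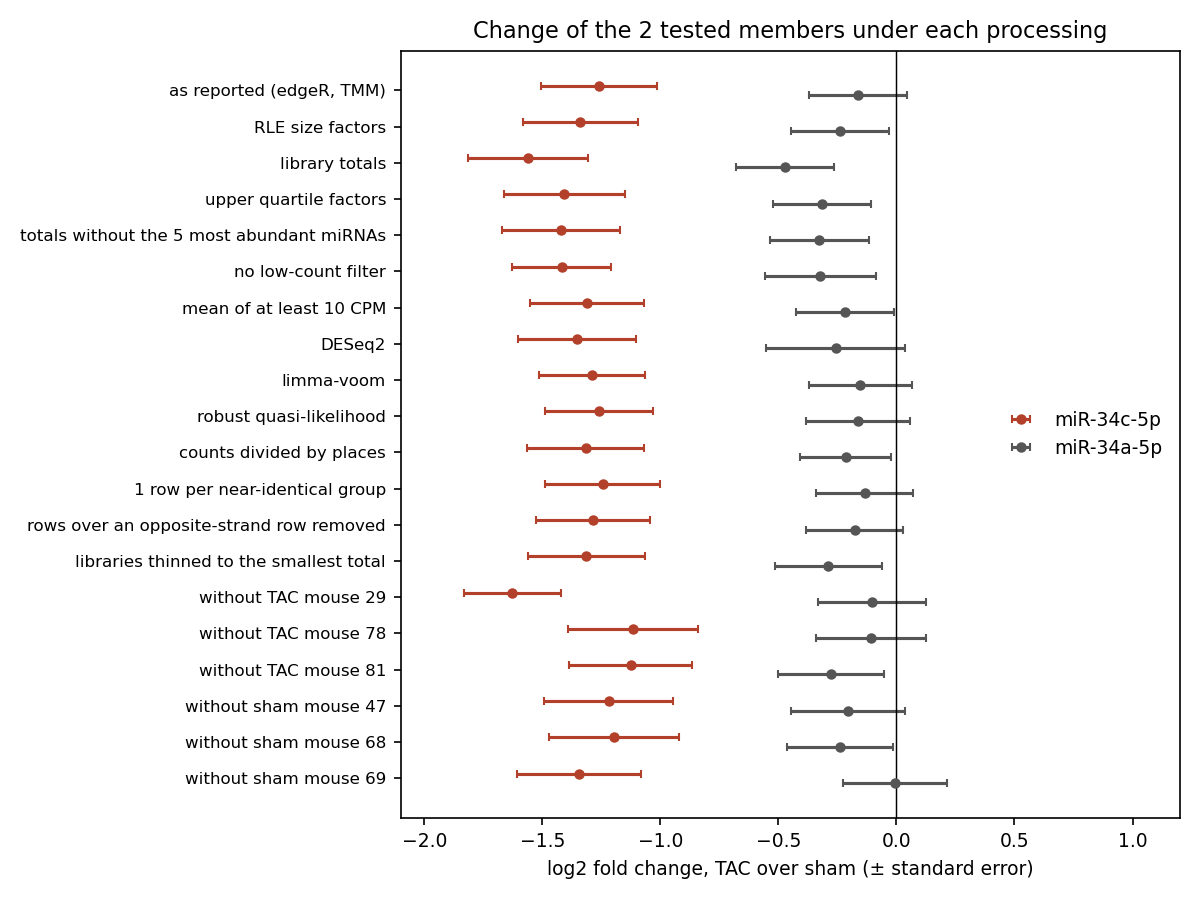
Log2 fold change of TAC over sham with its standard error for miR-34c-5p and miR-34a-5p, as reported and under the 19 alternative analyses. miR-34c-5p lies between -1.63 and -1.12 and miR-34a-5p between -0.47 and -0.01 over the alternatives.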

How the data were processed

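The deposited table holds raw read counts, whole numbers, for each mature miRNA and mouse. Per the submitters' processing notes, the authors worked on build mm10 with HISAT2, StringTie and DESeq2, without a stated role or version. The sources used here do not state the counter, adapter trimming, library kit or strand setting. All 6 count columns were matched to a mouse by the number in the labels, and 0 were left over. Numbers are not shared between groups, and no batch is given.

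The fit used edgeR 4.0.16 in R 4.3.3 (quasi-likelihood test with TMM scaling and filterByExpr and no covariate) on all 1966 rows and 6 libraries, of which 354 passed the filter, with Benjamini-Hochberg adjustment and a threshold of 0.05. Standard errors were derived from each log2 fold change and its F statistic. Single values were compared with exact two-sided permutation tests (scipy 1.17.1). Ratios had 0.5 added to each count. The fit was also run on simulated counts that had the same dispersion for all miRNAs, and no result here rests on that run. Alternatives were DESeq2 1.42.0, limma-voom (limma 3.58.1), robust quasi-likelihood, 4 scalings, 2 low-count filters, counts divided by places, merging rows whose RefSeq sequences differ by at most 2 mismatches, removal of rows over an opposite-strand row (10 nt), thinning, and leaving out each mouse. DESeq2 used its own filter.

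Named miRNAs were the members, the GGCAGUG seed group, the 3 most similar patterns per tested member, and the called and extreme members of a list of p53 targets. Members and lists were chosen with earlier results of these data known.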

Additional observations from a re-analysis of the deposited data

How the results depend on the processing

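The call of miR-34c-5p and the absence of a call for miR-34a-5p were the same in all 19 alternatives. Leaving out 1 mouse gave log2 fold changes of -1.63 to -1.12 for miR-34c-5p and -0.28 to -0.01 for miR-34a-5p. It moved the ratio difference between miR-34c-5p and miR-34a-5p between -1.54 and -0.92. The difference of the miR-34b to miR-34c hairpin ratio (-0.12) was not stable in sign: 0.28 with 1 added to each count, 0.088 with thinned libraries, and -0.67 to 0.43 with 1 mouse left out (0.43 without TAC 81, 0.19 without sham 47, 0.10 without sham 69). The log2 fold change of miR-92a-3p (-0.01) turned to 0.013 with near-identical rows merged and ran from -0.10 to 0.066 with 1 mouse left out, above 0 without TAC 29, TAC 78 or sham 69. That of miR-5100 (-0.12) ran from -0.26 to 0.087, the last without sham 69. That of miR-200c-3p (-0.15) turned to 0.14 with limma-voom and ran from -0.52 to 0.41, the last without sham 68.

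The 108 calls (40 lower and 68 higher in TAC) became 102 lower and 25 higher with library totals, 65 and 42 without a low-count filter, 63 and 41 with upper quartile factors, 72 and 43 when the 5 most abundant miRNAs were left out of the totals, 56 and 50 with RLE size factors, 57 and 59 with DESeq2, 52 and 51 with counts divided by places, and 47 and 56 with a mean of at least 10 CPM. Leaving out 1 mouse gave 64 to 83 calls, 18 to 29 of them lower and 44 to 57 higher. There were 64 calls without TAC 81 and 69 without TAC 78. Lower calls numbered 18 without TAC 81, 25 without TAC 78, 25 without sham 47, 26 without sham 68 and 25 without sham 69. The cause was not tested. No paired analysis was possible because the animal numbers are not shared between the groups. Depth limits the 4 untested members, whose counts were 16 or fewer in every library.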
